A study of Mus musculus with 2 samples.

Results

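Weak H3K27me3 regions were described that both replicates of mouse embryonic stem cells share in their relaxed peak lists but that lie under no peak of the stricter pseudoreplicated lists. Members were chosen by measured values: merged relaxed peaks of replicate 1 and replicate 2 had to overlap by at least 100 bp on an autosome, and no pseudoreplicated peak of replicate 1, of replicate 2 or of both together could touch the overlap. Of 123689 autosomal regions shared by the relaxed lists, 10074 (8.14%) met this rule and are termed untouched regions here, a term that refers to the pseudoreplicated lists alone. The remaining 113615, each touched by a pseudoreplicated peak, are termed touched regions. The untouched regions covered 1.63 Mb and the touched regions 50.5 Mb. The mark was measured by histone ChIP-seq with an H3K27me3 antibody in E14TG2a.4, an embryonic stem cell line of strain 129/Ola derived from a male embryo at 3.5 days. There is 1 group of 2 biological replicates and no treatment, so no contrast between conditions exists and no test was made. Both replicates come from the same line, and a control library was not analysed here. The labels do not say whether feeder cells were present, and peak lists measure no expression. Cell identity was therefore not checked beyond promoters, whose counts cannot decide it. Of 26 core and naive pluripotency promoters, 20 were free of a pseudoreplicated peak, as were 9 of 15 fibroblast marker promoters. Among all autosomal protein-coding promoters, 13505 of 20807 were free of one.

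H3K27me3 is the trimethylation of lysine 27 of histone H3. It is placed by Polycomb repressive complex 2, whose catalytic subunit is Ezh2 or Ezh1, and is read by the Cbx subunits of Polycomb repressive complex 1. In embryonic stem cells the mark is known for covering CpG-rich promoters of developmental regulators such as the Hox genes, often as broad domains, while many other sequences carry it at low density. A peak caller run with loose settings returns a long relaxed list, and a pseudoreplicated list is usually held to peaks found again when the reads are divided at random.

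The sequences below show what the strongest untouched regions of the promoter, intron and intergenic classes are made of, beside an intergenic region of median rank. The first 6 are among the highest ranked untouched regions of those classes by mean signal percentile, and the last was chosen after the values were seen. At Creb5 and Hist3h2a a merged relaxed peak underneath also touched a pseudoreplicated peak elsewhere along its length. The nearest such peak lay 60 bp from the Creb5 region and 87 bp from the Hist3h2a region, and their ranks can come from the touched part. Each is the plus strand of GRCm38 (mm10) from the RefSeq genome sequence, named by the nearest or overlapped gene, with CpG dinucleotides in capitals. Regions longer than 300 bases are shown by their central 300.
Gm10807, chr10:58228313-58228576: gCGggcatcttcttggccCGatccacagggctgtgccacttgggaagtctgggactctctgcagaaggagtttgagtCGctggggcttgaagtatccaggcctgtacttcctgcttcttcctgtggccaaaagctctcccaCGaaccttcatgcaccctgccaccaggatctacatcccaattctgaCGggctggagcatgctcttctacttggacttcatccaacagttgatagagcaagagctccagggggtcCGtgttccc
Creb5, chr6:53291059-53291217: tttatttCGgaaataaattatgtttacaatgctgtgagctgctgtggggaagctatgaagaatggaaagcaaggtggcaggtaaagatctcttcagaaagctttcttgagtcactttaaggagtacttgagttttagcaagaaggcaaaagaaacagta
Filip1l, chr16:57391549-57391848: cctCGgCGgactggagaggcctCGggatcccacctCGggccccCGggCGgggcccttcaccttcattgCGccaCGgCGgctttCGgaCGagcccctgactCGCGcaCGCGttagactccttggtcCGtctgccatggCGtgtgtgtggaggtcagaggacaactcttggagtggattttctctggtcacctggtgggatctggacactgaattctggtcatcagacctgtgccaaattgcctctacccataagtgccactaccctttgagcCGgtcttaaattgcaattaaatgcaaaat
2410017I17Rik, chr17:36147018-36147185: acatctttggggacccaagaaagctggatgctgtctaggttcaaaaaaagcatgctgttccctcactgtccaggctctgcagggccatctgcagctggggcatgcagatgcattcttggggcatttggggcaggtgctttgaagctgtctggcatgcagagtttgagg
Tmem125, chr4:118548513-118548812: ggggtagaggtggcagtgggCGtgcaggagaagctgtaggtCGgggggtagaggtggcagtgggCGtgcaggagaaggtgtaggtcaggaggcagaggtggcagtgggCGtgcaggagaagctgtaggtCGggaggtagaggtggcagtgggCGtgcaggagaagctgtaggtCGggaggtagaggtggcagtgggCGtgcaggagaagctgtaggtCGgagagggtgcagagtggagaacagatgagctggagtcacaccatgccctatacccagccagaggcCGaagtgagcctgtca
Hist3h2a, chr11:58953123-58953312: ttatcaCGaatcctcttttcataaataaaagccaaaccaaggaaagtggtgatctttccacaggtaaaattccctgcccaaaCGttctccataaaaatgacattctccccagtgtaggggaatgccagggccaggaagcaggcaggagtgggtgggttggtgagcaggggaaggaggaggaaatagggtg
4930535I16Rik, chr4:123957505-123957654: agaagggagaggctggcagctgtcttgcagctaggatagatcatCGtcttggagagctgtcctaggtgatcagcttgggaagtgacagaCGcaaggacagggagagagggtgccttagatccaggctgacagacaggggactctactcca

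The region near Tmem125 is a tandem repeat, of which 71.5% of positions matched when the sequence was shifted against itself by 44 bases. Among the other 6 sequences the best shift of 10 bases or more matched between 32.5% and 36.8% of positions. CpG content also varied widely. The Filip1l region held 18 CpG in 300 bases, the Tmem125 region 10 and the region of median rank 2, whereas the one in the 2410017I17Rik transcript held none.

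The signal value is the authors' own figure for each peak, on a scale that the files do not explain, and it was low in most untouched regions of both replicates. It had a median of 3.03 in replicate 1 (range 1.671 to 13.52) and of 3.05 in replicate 2 (range 1.573 to 12.2). Touched regions had medians of 4.14 in replicate 1 and 4.09 in replicate 2. Because the rule was built on these libraries, the gap describes the selection and is no finding. Ranked within all autosomal peaks of its own relaxed list, the median untouched region stood at percentile 32.4 in replicate 1 and 31.5 in replicate 2, and the median touched region at 76.8 and 74.6. Signal values came in steps: 13.4% of untouched regions had 3.03 in replicate 1 and 14.8% had 3.05 in replicate 2, and the next commonest values were 3.31 (13.0%) in replicate 1 and 3.33 (12.8%) in replicate 2.

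**Figure D1:**
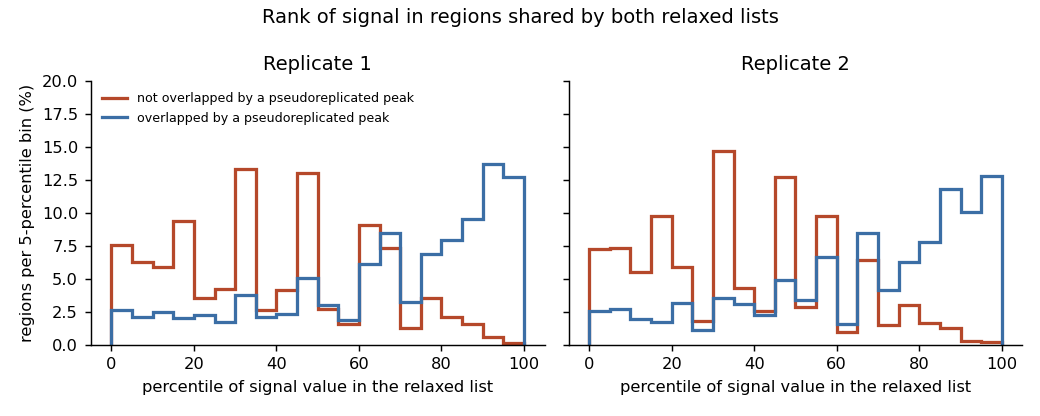
Percentile of the signal value (horizontal axis, 0 to 100, within the relaxed list of that replicate) against the share of regions in each bin of 5 percentiles, for untouched (red) and touched (blue) regions. Untouched regions fall mostly below percentile 70, with spikes where many peaks share 1 value, and touched regions gather at the upper end in both replicates.

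Low rank was not universal. Both replicates placed 52.2% of untouched regions below percentile 50 of their lists, against 10.3% of touched regions. Only 10 untouched regions (0.0993%) were above percentile 90 in both, against 17329 touched regions (15.3%). The deposited −log10 p had a median of 4.33 in replicate 1 and 4.05 in replicate 2 over untouched regions, against 6.89 and 6.93 over touched regions. A deposited −log10 q of at least 2 was reached by 70.8% of untouched regions in replicate 1 and 69.8% in replicate 2, against 91.5% and 91.7% of touched regions. The signal of replicate 1 said little about that of replicate 2 among untouched regions, across 10074 regions (Spearman rho 0.0957, Pearson r 0.164). Across the 113615 touched regions rho was 0.464 and r was 0.675. These correlations are descriptions over regions of the same libraries, and both groups are truncated by the rule.

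Untouched regions were short. Their median length was 150 bp (quartiles 132 and 177), against 248 bp (quartiles 170 and 435) for touched regions. Just above and just below the threshold on shared length, median signals were equal. The 345 members of 100 to 104 bp had medians of 3.03 in replicate 1 and 3.05 in replicate 2. The 334 excluded overlaps of 95 to 99 bp had the same medians. Those values are the commonest signal values of untouched regions, so equal medians could not show that these sets were alike. Edge pieces were few. In 482 members at least 1 of the merged relaxed peaks underneath touched a pseudoreplicated peak elsewhere along its length, and these lay a median of 100 bp from one, with median signals of 3.45 in replicate 1 and 3.33 in replicate 2. The other 9592 (95.2%) were free-standing. A region takes the signal of a whole relaxed peak, so for an edge piece that signal can come from the touched part of the peak.

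The name "only in relaxed lists" did not hold for the whole set. All 10074 untouched regions overlapped the relaxed list of both libraries, and 10062 (99.9%) overlapped the replicated list of the first run, which the headers derive from the relaxed lists. Beyond these, 6777 (67.3%) overlapped the replicated list of the second run, the run that also gave the pseudoreplicated lists. The corresponding share of touched regions was 97.6%. Within the second run's replicated list those 6777 ranked low, at a median percentile of 25.5 by signal. The 3297 regions absent from it had a median length of 150 bp, against 152 bp for those in it. Their median signal in replicate 1 was 3.03 against 3.1, and their CpG ratio 0.174 against 0.171. Of the absent regions 93.1% were free-standing, against 96.3% of those in the list. The absent regions also included all but 1 of 18 free-standing regions with a −log10 p of at least 10 in both replicates. In the relaxed list of both libraries together the untouched regions had a median percentile of 67.8 and a median −log10 p of 7.01. That list is longer, with 299293 autosomal peaks against 217364 in replicate 1 and 222648 in replicate 2. Percentiles are therefore not comparable between it and the lists of single replicates. The rule also required a peak in both replicates, and the rank of touched regions in that list was not computed.

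Most untouched regions lay close to pseudoreplicated peaks. The nearest pseudoreplicated peak was a median of 703 bp away (quartiles 260 and 2299), and 58.6% of untouched regions had one within 1 kb and 85.0% within 5 kb. Among 762563 windows of 150 bp placed every 3000 bp and free of pseudoreplicated peaks, the median distance was 50150 bp, with 5.3% within 1 kb and 15.6% within 5 kb. Untouched regions also sat between peaks: 4976 (49.4%) had a pseudoreplicated peak within 5 kb on both sides, against 4.49% of the windows, and a further 3585 (35.6%) had one on 1 side. Median signal hardly varied with distance. The 5902 regions within 1 kb had medians of 3.2 in replicate 1 and 3.06 in replicate 2, and the 1322 regions at 5 to 50 kb had 3.03 and 3.05.

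**Figure D2:**
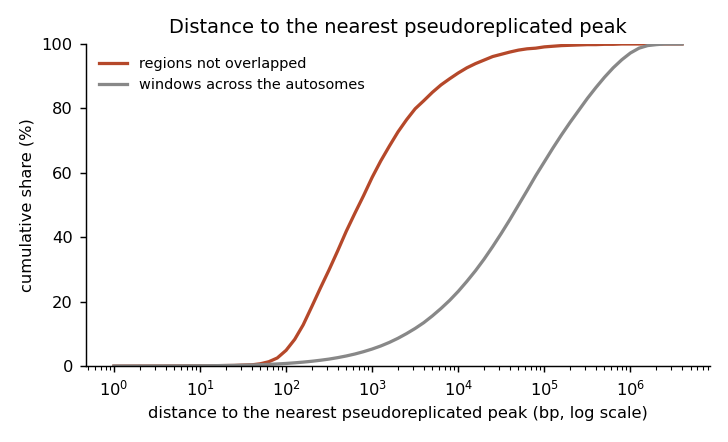
Cumulative share of untouched regions (red) and of peak-free windows across the autosomes (grey) against the distance to the nearest pseudoreplicated peak in bp, on a log scale. The red curve passes 50% near 703 bp and the grey curve near 50150 bp.

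Only 191 untouched regions (1.9%) were more than 50 kb from any pseudoreplicated peak, against 50.1% of the windows. They had the same median signals as the whole set, 3.03 in replicate 1 and 3.05 in replicate 2, but differed in other measures. Their median GC content was 49.5%, CpG ratio 0.142 and soft-masked share 6.55%, against 51.3%, 0.171 and 0% for all untouched regions. The nearest protein-coding gene start was a median of 75700 bp away, against 26280 bp for all untouched regions. Of the 191, 107 were intergenic, 53 intronic, 25 in promoters and 6 in exons, and 104 (54.5%) overlapped the replicated list of the second run. The highest ranked was an intergenic region of 235 bp 1122 bp from the start of Elobl (chr11:88967936-88968170), with signals of 5.516 in replicate 1 and 5.821 in replicate 2 and the nearest peak 133208 bp away. Next came an intron of Tmem267 (chr13:119602317-119602565), with 4.927 and 5.544 in the same order of replicates, 114760 bp from a peak.

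Genomic location was intermediate between touched regions and the autosomes as a whole. Promoters, taken as 1 kb on each side of any annotated transcript start, held 10.1% of the bases of untouched regions, 24.4% of the bases of touched regions and 6.28% of autosomal sequence. Exons outside promoters held 5.02%, 8.06% and 3.37%, in the same order. Introns held 39.4% of untouched bases, 35.3% of touched bases and 40.3% of the autosomes. Intergenic sequence held 45.4%, 32.2% and 50.1%. The distance to the nearest protein-coding gene start followed the same order, with medians of 26280 bp, 14500 bp and 72540 bp for windows. Counted by region centre rather than by bases, promoters held 9.75% of untouched regions and 16.9% of touched regions, which are longer.

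**Figure D3:**
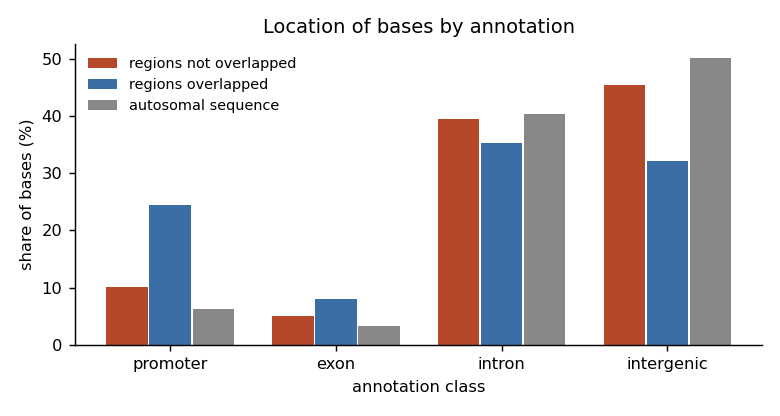
Share of bases (%) in promoters, exons, introns and intergenic sequence for untouched regions (red), touched regions (blue) and sequenced autosomes (grey). The promoter bars stand at 10.1%, 24.4% and 6.28%.

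The location classes differed slightly in signal. By the position of their centres, 982 untouched regions were in promoters, 518 in exons, 3982 in introns and 4592 in intergenic sequence. Promoter regions had median signals of 3.2 in replicate 1 and 3.15 in replicate 2, and both intronic and intergenic regions had 3.03 and 3.05. Promoter regions also lay nearest to a pseudoreplicated peak, at a median of 472 bp, against 804 bp for intergenic regions. The share found in the second run's replicated list stayed between 66.5% and 68.0% over the classes.

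In GC and repeat content untouched regions lay nearer to touched regions, and their median CpG ratio lay between those of touched regions and of the genome. The median GC content of untouched regions was 51.3%, against 51.4% in touched regions and 42.0% in 798617 windows of 150 bp across the autosomes. The median ratio of observed to expected CpG was 0.171 in untouched regions, 0.201 in touched regions and 0.144 in windows. At least 0.6, the usual bound of a CpG island, was reached by 2.55% of untouched regions, 3.92% of touched regions and 3.98% of windows. No CpG at all was present in 18.7% of untouched regions, 9.17% of touched regions, which are longer, and 38.9% of windows. Repeats were scarce: soft-masked bases took up more than 50% of the length in 6.0% of untouched regions, 4.27% of touched regions and 27.9% of windows. The letters CCGCC on either strand occurred in 7.71% of untouched regions, 21.1% of touched regions and 4.31% of windows. The dinucleotide runs CACACACA and GAGAGAGA, also on either strand, occurred in 2.87% and 2.43% of untouched regions, 8.84% and 6.81% of touched regions, and 4.86% and 2.73% of windows. Length differs between touched regions and the other groups, and a longer region holds any motif more often.

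Density per chromosome followed that of touched regions. The autosomes held 4.2 untouched and 47.4 touched regions per Mb. Chromosome 11 had the most untouched regions, 6.02 per Mb, and chromosome 3 the fewest, 2.53 per Mb. Across the 19 autosomes the density of untouched regions went with that of touched regions (Spearman rho 0.928, Pearson r 0.923) and with that of protein-coding genes (rho 0.762, r 0.795), a description over chromosomes that share libraries and base composition. As a share of all shared regions, untouched regions ranged from 6.89% on chromosome 11 to 10.3% on chromosome 14.

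**Figure D4:**
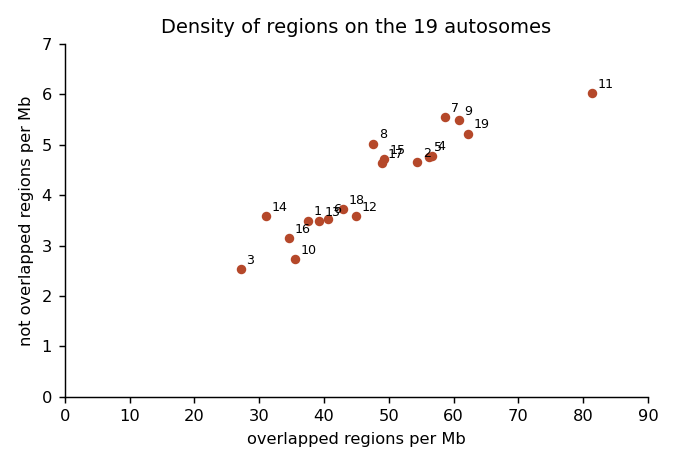
Untouched regions per Mb (vertical axis) against touched regions per Mb (horizontal axis), 1 point per autosome labelled with its number. Chromosome 11 is highest on both axes and chromosome 3 lowest on both.

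Counts of untouched regions were uneven along the autosomes. Of 2473 windows of 1 Mb, 1662 held at least 1, with a median of 2 and a maximum of 40. The maximum lay at chr7:49000001-50000000, with 40 untouched and 127 touched regions around Dbx1, a homeobox regulator of spinal interneurons, Slc6a5, a glycine transporter, Nell1, Prmt3 and Htatip2. At chr9:48000001-49000000 there were 35 untouched and 160 touched regions, around Zbtb16, a zinc finger repressor needed by spermatogonial stem cells, and the serotonin receptor subunit genes Htr3a and Htr3b. At chr4:124000001-125000000 there were 32 untouched and 309 touched regions, around Pou3f1, a POU factor of neural and Schwann cells, and the Wnt agonist gene Rspo1. The window at chr4:154000001-155000000, with Prdm16, Hes5 and Trp73, held 30 untouched and 535 touched regions. The window at chr9:61000001-62000000, with the corepressor gene Tle3, Rplp1 and Kif23, held 30 and 194. Each of these windows also held more touched regions than the autosomal 47.4 per Mb. Over all autosomes 8.14% of shared regions were untouched, so a high count alone does not show an excess.

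Gene bodies showed the same spread over long genes. Of 20807 autosomal protein-coding genes, 2463 (11.8%) had an untouched region somewhere in the body, 1584 of them a single one and 141 at least 5. The following genes were picked after the values were seen. The read-through gene Gm20388 held 70 and Fgfr2, a fibroblast growth factor receptor, 31, over annotated bodies of 4435 kb and 2961 kb. Such counts take in any other gene annotated inside the same body, so they need not belong to the named gene. Camta1, a calcium-responsive transcription activator, held 21 over 944.6 kb. Pebp4 held 20 over only 219.5 kb. Nav2, a neuron navigator, held 18, Prdm16 and Ptprn2, a receptor-type phosphatase, 16 each, and Zbtb16 14 over 181.9 kb. All of these bodies also held touched regions: 840 in Gm20388, 355 in Fgfr2, 92 in Camta1 and 116 in Pebp4. Nav2 held 59, Prdm16 179, Ptprn2 143 and Zbtb16 67. Since 8.14% of shared regions over the autosomes were untouched, a high count in a gene body alone does not show an excess.

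At promoters of protein-coding genes, taken as 1 kb on each side of the gene start, untouched regions were rare. Of 20807 promoters, 358 (1.72%) held one, and 244 of those held a pseudoreplicated peak as well. Among the 13505 promoters without a pseudoreplicated peak, 114 (0.844%) held an untouched region. The median CpG ratio of the promoter (500 bp on each side of the start) was 0.386 for these 114, 0.501 for promoters with both, 0.608 for all promoters with a pseudoreplicated peak and 0.507 for promoters with neither. Divided into 3 equal classes of promoter CpG ratio, the share of unmarked promoters holding an untouched region was 0.875% in the lowest class, 0.962% in the middle and 0.714% in the highest. The share of all promoters with a pseudoreplicated peak was 20.9%, 49.0% and 35.4% over the same classes. Among other gene types, 1.94% of 5209 lincRNA promoters held an untouched region, 1.72% of 2913 antisense, 1.27% of 2054 miRNA, 0.851% of 1292 snRNA, 0.796% of 8924 processed pseudogene and 0.447% of 1789 unprocessed pseudogene promoters, and 0 of 218 promoters of immunoglobulin V genes.

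Of the 114 protein-coding genes whose promoter held an untouched region and no pseudoreplicated peak, the 20 highest ranked by mean signal percentile had diverse known roles. Grsf1, which encodes an RNA-binding protein of mitochondrial RNA granules, ranked first: its region of 201 bp centred 1047 bp upstream of the start had signals of 4.965 in replicate 1 and 4.879 in replicate 2, with a pseudoreplicated peak 162 bp away. Snx31, a sorting nexin gene, had 4.965 in replicate 1 and 3.881 in replicate 2, 581 bp inside the gene. Tomm20l, a relative of the mitochondrial import receptor Tomm20, had one of the more isolated regions. The region of 256 bp (chr12:71111203-71111458) covered the gene start, had signals of 4.413 in replicate 1 and 3.881 in replicate 2, a CpG ratio of 0.469, and the nearest pseudoreplicated peak 194395 bp away. Among the 114 genes the distance was larger at Crygf, a lens crystallin gene (248635 bp), and Sirpb1c (198871 bp), and Olfr474 followed (151379 bp). Of the 20, Snx31, Tomm20l, Fam126a, Gm8909 and Smco3 had a region outside the second run's replicated list, and excluding regions in that list left 36 of the 114 promoters.

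Signalling and membrane genes among the 20 were Dvl1, which relays Wnt signals, with 4.413 in replicate 1 and 3.604 in replicate 2, Ramp3, a partner of calcitonin-type receptors, with 3.561 and 4.435, Tie1, an endothelial receptor tyrosine kinase, with 3.586 and 3.604, and Fam126a, part of a lipid kinase complex, with 4.137 and 3.881. Regulators were Aire, the thymic activator of self-antigen genes, with 4.689 and 4.337, Myrf, the myelin regulatory factor, with 3.31 and 4.158, and the zinc finger genes Zbtb8b, with 3.862 and 3.881, and Zfp639, with 3.361 and 3.881. The Aire region is an edge piece and also falls in the promoter of Dnmt3l, the cofactor of de novo DNA methylation, and lies 108 bp from a pseudoreplicated peak. The remaining genes were Gm8909, Olfr474, Poc1b, Tas2r144, Krt6a, Comtd1, Plcxd2, Smco3 and Focad. Replicates disagreed most at Tas2r144, a bitter taste receptor gene, with 3.203 in replicate 1 and 4.712 in replicate 2.

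In the 30 gene lists used here, 13 genes had an untouched region and no pseudoreplicated peak in the promoter. Excluding regions in the second run's replicated list left 3 of them, Tnfsf4, Tnfsf8 and Slc25a42, and a shared length of at least 200 bp left 6. No gene of the developmental lists was among them, and few of those promoters were free of a pseudoreplicated peak: 39 of 39 HOX genes, 38 of 38 neural and neural crest regulators, 58 of 69 secreted morphogens and 39 of 43 regulators of mesoderm, endoderm, muscle and heart had one. The count was also 0 among the free promoters of 20 core and naive pluripotency genes, 25 Polycomb and Trithorax subunits and 25 cell cycle and replication genes. It was 0 for 23 housekeeping genes, 67 histone genes and 124 defensin, lipocalin and secretoglobin genes too. The background over all free promoters was 0.844%. At that share, sets of these sizes would hold few or no such genes, so the zeros say little about these classes. Olfactory receptors had 1 of 1099 (0.091%), Olfr474, and vomeronasal and taste receptors had 1 of 376 (0.266%), Tas2r144.

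The other genes were spread thinly. Cytokines, chemokines and interferons had 3 of 57 free promoters (5.26%): Tnfsf4, a costimulatory ligand of T cells, with 3.862 in replicate 1 and 3.049 in replicate 2, the interleukin gene Il25, with 3.034 and 3.465, and Tnfsf8, another ligand of the tumour necrosis factor family, with 3.586 and 2.772. Solute carriers had 3 of 187 (1.6%): Slc7a11, the cystine importer, with 2.758 and 3.881, Slc25a42, a mitochondrial carrier, with 3.31 and 3.326, and Slc7a4, with 3.449 and 3.049. Single genes were Gabrr1, a GABA receptor subunit gene, with 3.848 and 3.4, Cyp2w1 with 3.586 and 2.859, Krt6a with 3.862 and 3.471, the ribosomal protein gene Rpl3l with 2.902 and 3.157, and Zfp639. In the pluripotency and Polycomb lists, untouched regions accompanied a pseudoreplicated peak at Gbx2, with 2.758 in replicate 1 and 3.326 in replicate 2, at Dnmt3l, and at Phc2, a subunit of Polycomb repressive complex 1, with 1.968 and 3.326.

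Within 10 kb of the gene start, a distance chosen after the data were seen, untouched regions were more frequent. Of 20807 protein-coding genes, 2756 (13.2%) had an untouched region there, made up of 1954 of the 7302 genes with a pseudoreplicated promoter peak (26.8%) and 802 of the 13505 without (5.94%). None of the 39 HOX genes had one. Among marked genes, neurotransmitter receptors had one at 27 of 74 (36.5%), keratins and skin barrier genes at 14 of 44 (31.8%), potassium, sodium and calcium channels at 32 of 107 (29.9%) and solute carriers at 48 of 175 (27.4%). Neural and neural crest regulators had one at 8 of 38 (21.1%), among them Dlx1 and Emx1, and secreted morphogens at 12 of 58 (20.7%), among them Bmp4, Nog and Wnt5b. Regulators of mesoderm, endoderm, muscle and heart had one at 6 of 39 (15.4%). Among smaller lists, primed epiblast genes had one at 4 of 11 (36.4%), blood and endothelial genes at 5 of 14 (35.7%) and core and naive pluripotency genes at 3 of 6, namely Dnmt3l, Gbx2 and Prdm14. The largest share, 7 of 10 (70.0%) for defensins, lipocalins and secretoglobins, rests on few genes, several of which lie side by side, such as Defb25, Defb26 and Defb28. Most lists stayed within 10 percentage points of 26.8%. Neighbouring genes can share a region, and the lists were read against the background with no test.

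**Figure D5:**
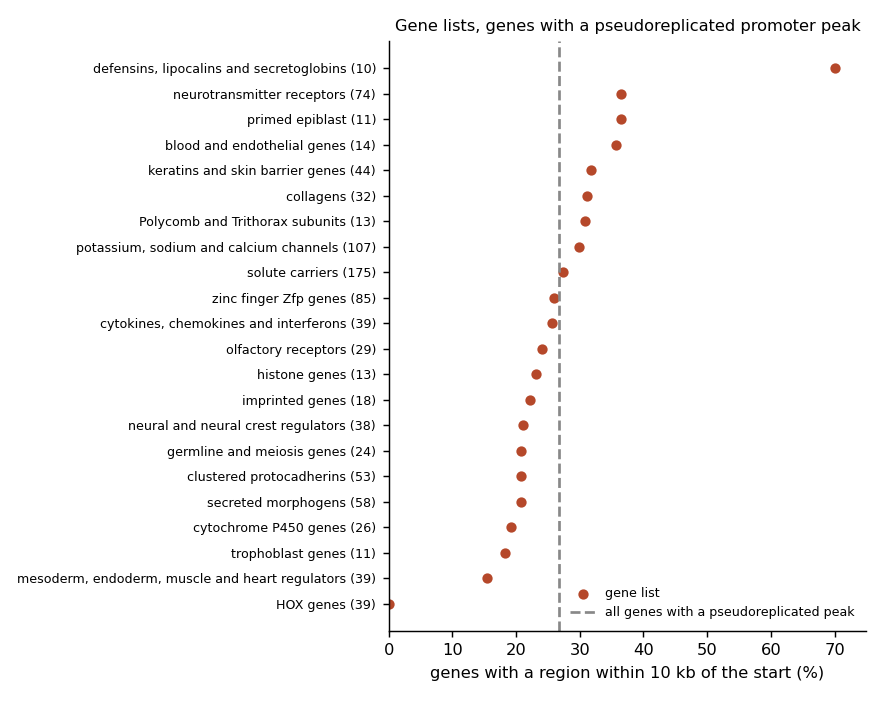
Share (%) of the genes with a pseudoreplicated promoter peak that have an untouched region within 10 kb of the start, 1 point per gene list with at least 10 such genes (number in brackets). The dashed line is the 26.8% of all such genes, HOX genes stand at 0, and the defensin list of 10 genes stands at 70.0%.

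A small group of untouched regions was not weak by the authors' p. Among the 9592 free-standing regions, 18 had a −log10 p of at least 10 in both replicates. Only 1 of those was in the replicated list of the second run. For touched regions the upper quartile of −log10 p was 10.72 in replicate 1 and 10.25 in replicate 2. The share of touched regions that reached 10 in both was not computed. Of the 18, 11 fell in 3 stretches of 100 kb, named here after their values were seen. At chr17:39800001-39900000, where the annotation places the rRNA gene CT010467.1 and the lincRNA genes Gm26917 and Gm42418, the longest untouched region of all spanned 3563 bp (chr17:39843089-39846651). It had a −log10 p of 103.1 in replicate 1 and 47.34 in replicate 2, signals of 7.407 and 3.565, and a GC content of 68.1%. No list of the second run had a peak anywhere in those 100 kb, and the nearest pseudoreplicated peak was 1031231 bp away.

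The second stretch, chr11:3150001-3250000, covers Sfi1, a centrosome gene, and Drg1, a GTP-binding protein gene, and held 9 untouched regions totalling 4606 bp. Their signals were low, at most 2.67 in replicate 1 and 2.91 in replicate 2, while −log10 p ranged from 5.47 to 24.1 in replicate 1 and from 6.53 to 28.4 in replicate 2. The third stretch, chr10:58200001-58300000, around AW822073 and the pseudogene Gm10807, held 3 untouched regions of 264 to 302 bp. Their signals were 4.095 to 5.328 in replicate 1 and 3.514 to 7.222 in replicate 2. Unlike the chromosome 17 stretch, these stretches held peaks of the second run, from 3 of its lists around Sfi1 and 4 around AW822073.

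The other 7 were scattered. The region near Tmem125 printed above had the highest signal of all untouched regions, 13.52 in replicate 1 and 12.2 in replicate 2 (percentiles 99.72 and 99.46), and lay 49 bp from a pseudoreplicated peak. The intronic region shared by Cmss1 and Filip1l had 9.362 and 8.871, 170 bp from a peak. An intergenic region at chr3:5860537-5860873 had 8.074 and 5.222 and a CpG ratio of 0.901, and one in an intron of Cdk8, a Mediator kinase gene, had 5.288 and 5.139 and a CpG ratio of 1.01. Regions in the transcript of the lincRNA 2410017I17Rik and in the pseudogene Gm20392 near H2-T3, both among class I histocompatibility genes of chromosome 17 and less than 100 kb apart, had 5.792 and 5.544, and 5.516 and 5.821. The region near Elobl described above completes the 7. Among edge pieces, the highest ranked lay near Hist3h2a, a histone gene, with 7.171 and 5.821, near Dusp4, a phosphatase gene of the MAP kinase pathway, with 5.241 and 7.673, and in an exon of Zic2, a zinc finger regulator of neural development, with 5.174 and 7.207. An intron of Ctnnd2, which encodes a neuronal catenin, held the longest edge piece, of 738 bp, with 5.241 and 5.821. These signals of edge pieces can come from the touched part of the relaxed peak.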

How the data were processed

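H3K27me3 ChIP-seq peak lists of 2 biological replicates were read as deposited, in 8 lists on mm10 (GRCm38). Per the file headers, a first run gave the relaxed lists and a replicated list, and a second run the pseudoreplicated lists and another replicated list, using a further file whose content is not given. Each peak carries a signal value, −log10 p and −log10 q computed by the authors. The sources used here name no caller, aligner or threshold. Signal was used only to describe and rank peaks within a list. Read depth is unknown, and a list on mm9 was not used.

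Peaks were merged per list and intersected with Python 3.11.15, NumPy 2.4.6, pandas 2.3.3 and SciPy 1.17.1, and plotted with Matplotlib 3.10.9. The interval functions were tested on simulated data. A region takes the values of the relaxed peak with the highest signal over it. Genes came from GENCODE mouse release 21, and bases from the RefSeq GRCm38.p6 sequence. Named genes are the 20 highest ranked promoters, up to 4 per list, the nearest genes of the 10 longest and 10 strongest regions, and genes of the 5 densest windows, with additions marked as chosen after their values were seen. Members, lists and rules were chosen with earlier results of these data known. Alternatives changed the minimum overlap, the lists that exclude, the p threshold, the promoter window and the replicates.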

Additional observations from a re-analysis of the deposited data

Results flagged for a closer look

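Outside the autosomes, the same rule found 111 regions on the X chromosome, which the report does not use, beside 1481 shared X regions under a pseudoreplicated peak. The unplaced sequence JH584304 held 22 and none under such a peak. No control library was used for comparison.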

How the results depend on the processing

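The count of 10074 regions depends on the definition. With a shared length of 1 bp there were 15574 regions (median length 129 bp, nearest peak 759 bp, promoter share 9.91%, CpG ratio 0.156, 96.6% in the first replicated list), and with 200 bp 1485 (232 bp, percentile 47.4, 540 bp, 11.7%, 0.184, 100%), with 26 sole promoters in place of 114, 6 list genes in place of 13 and 367 marked genes within 10 kb in place of 1954. Exclusion by the single-replicate lists alone gave 25931 regions (158 bp, percentile 43.4, 750 bp, 10.6%, 0.175), 305 sole promoters, 28 list genes and 3778 marked genes. Exclusion within 1 kb of a peak gave 4172 regions (3020 bp, 8.75%, 0.162) and 514 marked genes. A −log10 p of at least 3 gave a percentile of 39.9, a length of 151 bp, 664 bp and 10.6%. Promoter windows of 0.5 and 2.5 kb moved the promoter share to 5.37% and 21.9%, and the smaller left 74 sole promoters. Of the settings chosen after seeing the data, free-standing regions alone gave 776 bp and 9.93%, and excluding the second run's replicated list gave 3297 regions, 761 bp, 11.2%, 99.7%, 36 sole promoters, 3 list genes and 690 marked genes. Leaving out a replicate left single lists and gave 126501 to 150330 regions, 189 to 199 bp, 1930 to 3370 bp, 9.14% to 9.84%, 0.177 to 0.178, 48.6% to 53.7%, 1366 to 1903 sole promoters, 151 to 242 list genes and 5593 to 5890 marked genes. Against limits of 1.5 times for counts, and the 95% interval or the replicate SD for other values, 64 values moved and 32 stayed within. Apart from the construction of each setting, the cause was not tested. No paired analysis was possible because there is a single group. Depth is unknown, so an absent pseudoreplicated peak can mean too few reads.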
